A study of Homo sapiens with 21 samples.

Results

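SR proteins and heterogeneous nuclear ribonucleoproteins (hnRNPs) are the RNA-binding proteins that decide which exons enter a messenger RNA. The genes described here are the protein-coding genes of the deposited expression table named SRSF or HNRNP, together with TRA2A, TRA2B, RBMX, PCBP1, PCBP2 and SYNCRIP. Names that mark pseudogenes were left out. The rule took 43 of 27142 genes: 14 of the SRSF and TRA2 families, and 29 hnRNPs and close relatives.

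The series asked how specific knockdown by RfxCasR, a CRISPR enzyme guided to messages that it cleaves, and by matching short hairpin RNAs (shRNAs) is. The 21 libraries of messenger RNA came from HEK 293FT cells at passages 8 to 12, a line of human embryonic kidney origin with SV40 large T antigen. All groups were transfected with plasmids by lipofection, and RNA was taken 48 h later. There were 7 groups of 3 libraries: an ANXA4 shRNA, a B4GALNT1 shRNA and a non-targeting (NT) shRNA; RfxCasR with a B4GALNT1 guide RNA (gRNA) and RfxCasR with an NT gRNA; and RfxCasR with an ANXA4 array of guides and RfxCasR with an NT array. Each target was hit by 1 shRNA, so loss of the target and any other effect of that shRNA's sequence cannot be told apart.

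Depth was 34.7 to 39.5 M reads in the 6 array libraries, and 21.4 to 30.7 M in the other 15. ANXA4, an annexin, averaged 2.40 ± 0.22 FPKM in ANXA4 shRNA libraries and 5.90 ± 0.378 in NT shRNA libraries (SD, n = 3 each). B4GALNT1, a ganglioside synthase, averaged 2.78 ± 0.183 FPKM with its shRNA and 4.08 ± 0.179 with the NT shRNA. With its guide it averaged 2.21 ± 0.167 FPKM, against 5.89 ± 0.907 with the NT guide (SD, n = 3 each). The arrays went against their labels: ANXA4 averaged 7.03 ± 0.24 FPKM in the libraries labelled ANXA4 array and 3.03 ± 0.427 in the libraries labelled NT array (SD, n = 3 each), while the authors' deposited table gives a log2 fold change of -1.21 for ANXA4. The 2 array groups are therefore called by their labels throughout. Of 9 genes known from HEK cells, 8 reached 1 FPKM in at least 3 libraries and PAX2 did not. Of 12 markers of other cell types, 4 did so, and HBB was at 0 in all 21 libraries.

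SR proteins carry an RNA recognition motif and a tail rich in serine and arginine, bind enhancers inside exons and mostly favour exon inclusion. The hnRNPs coat nascent transcripts, often bind silencers and frequently oppose SR proteins, so the balance between the families sets many splicing choices. Both families regulate their own messages and one another's, in part through poison exons whose inclusion sends the transcript to nonsense-mediated decay. A value per gene sums all of these isoforms.

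The promoters of 5 genes to which the results return are shown first. HNRNPC and RBMX rose and HNRNPL fell in array libraries, HNRNPH2 fell with the ANXA4 shRNA, and SRSF10 was lower in NT guide than in NT shRNA libraries. The sequences are RefSeq's, on GRCh38.p14, each running 5′ to 3′ along the gene's strand with 250 bases before and 50 after the start of the gene. Capitals mark matches, on either strand, to 5 motifs. The letters searched were TATAAA for the box bound by TBP and CCAAT for the box bound by NF-Y. They were GGGCGG for the GC box of Sp factors, CCGGAAG for the ETS motif and finally GCCATNTTG for the YY1 motif. The windows are chr14:21269393-21269692 (minus), chrX:136880676-136880975 (minus), chr19:38852298-38852597 (minus), chrX:101407972-101408271 (plus) and chr1:23980278-23980577 (minus).
HNRNPC: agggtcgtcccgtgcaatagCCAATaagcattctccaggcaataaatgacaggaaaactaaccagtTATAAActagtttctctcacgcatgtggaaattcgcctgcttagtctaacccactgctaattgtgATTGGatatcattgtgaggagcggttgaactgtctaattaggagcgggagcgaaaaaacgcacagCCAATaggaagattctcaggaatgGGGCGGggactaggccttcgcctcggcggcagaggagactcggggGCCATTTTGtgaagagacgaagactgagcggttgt
RBMX: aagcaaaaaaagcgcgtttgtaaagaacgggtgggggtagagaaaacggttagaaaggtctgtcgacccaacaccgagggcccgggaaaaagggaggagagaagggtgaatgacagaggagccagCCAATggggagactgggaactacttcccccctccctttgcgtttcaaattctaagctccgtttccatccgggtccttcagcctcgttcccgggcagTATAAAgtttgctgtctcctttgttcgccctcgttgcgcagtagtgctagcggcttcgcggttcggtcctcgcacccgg
HNRNPL: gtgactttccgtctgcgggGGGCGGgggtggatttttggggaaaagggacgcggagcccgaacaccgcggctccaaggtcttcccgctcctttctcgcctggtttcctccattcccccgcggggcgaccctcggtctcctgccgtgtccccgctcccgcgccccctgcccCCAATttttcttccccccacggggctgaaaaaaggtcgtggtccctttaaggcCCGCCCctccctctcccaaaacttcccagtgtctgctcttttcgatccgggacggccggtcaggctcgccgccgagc
HNRNPH2: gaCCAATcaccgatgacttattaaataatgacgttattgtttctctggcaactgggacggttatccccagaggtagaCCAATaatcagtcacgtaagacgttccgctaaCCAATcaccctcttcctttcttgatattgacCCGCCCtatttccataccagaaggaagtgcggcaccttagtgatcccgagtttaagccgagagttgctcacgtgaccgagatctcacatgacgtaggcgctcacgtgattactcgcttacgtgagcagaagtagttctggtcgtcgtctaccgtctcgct
SRSF10: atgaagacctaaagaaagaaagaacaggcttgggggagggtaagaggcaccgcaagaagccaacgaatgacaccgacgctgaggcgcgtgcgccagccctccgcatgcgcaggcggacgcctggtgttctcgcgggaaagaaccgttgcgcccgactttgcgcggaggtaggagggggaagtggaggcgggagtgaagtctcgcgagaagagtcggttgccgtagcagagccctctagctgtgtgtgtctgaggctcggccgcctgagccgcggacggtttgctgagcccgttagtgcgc

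HNRNPC holds the NF-Y box 3 times besides the TBP box, the GC box and the YY1 motif, and RBMX has the TBP box close to the start. The HNRNPH2 window has the NF-Y box 3 times, and the SRSF10 window has none of these motifs. Promoters were found for 39 of 43 genes, SRSF2, TRA2A, HNRNPA1 and HNRNPCL3 being the others. CCAAT was present in 46.2% of the 39 and in 34.6% of all 35116 promoters of this length, and GGGCGG in 64.1% and 45%. TATAAA was present in 15.4% of the 39 and in 11.5% of all, and CCGGAAG in 17.9% and 10.3%. GCCATNTTG was found for HNRNPC, HNRNPCL4 and SRSF1 (7.69%, against 2.92% of all). On opposite strands CCAAT and GCCATNTTG can share 4 letters. A match describes letters and does not show binding. The median GC content was 63.7% for these genes and 58.7% for all promoters, and the median number of CpG was 29 and 14.

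These genes were highly expressed. The 39 that were tested had a median level of 122 FPKM (fragments per kilobase of exon and per M reads) over all libraries. It was 9.30 FPKM for the 13679 genes tested, and 22 of the 43 averaged above 100 FPKM. All 43 together held 1.15% to 1.31% of all FPKM in a library. HNRNPA2B1, which binds silencers and sorts RNA for transport, was the highest at 479 FPKM (HNRNPA2B1; NM_002137, chromosome 7, 26229556 to 26240413, minus strand, hg19). HNRNPA1L2, a close relative of HNRNPA1, was the lowest of the genes tested at 4.35 FPKM, and reads of near-identical copies could be split between it and HNRNPA1. HNRNPC averaged 214 FPKM and SRSF2, a speckle protein that binds exonic enhancers, 189 FPKM.

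A gene was tested where it reached 1 FPKM in at least 3 libraries, which held for 39 of the 43. The other 4 were HNRNPCL1, HNRNPCL2, HNRNPCL3 and HNRNPCL4, HNRNPC-like genes of chromosome 1. HNRNPCL1, HNRNPCL3 and HNRNPCL4 lie on the minus strand and end at the same base, 12907230 of hg19, so their genes overlap and cannot be told apart by counting. HNRNPCL4 ranged between 0.09 and 1.17 FPKM over the 21 libraries, and HNRNPCL2 between 0 and 0.522 FPKM. Some of the genes tested also overlap an annotated gene on the same strand, by start and end. Whether exons are shared was not examined. Among them, HNRNPA1 overlaps the pseudogene HNRNPA1P10 (144 FPKM) and HNRNPH2 the readthrough gene RPL36A-HNRNPH2 (76.2 FPKM). HNRNPUL2 overlaps HNRNPUL2-BSCL2 (56.7 FPKM), PCBP2 overlaps PCBP2-OT1 (55.6 FPKM) and HNRNPU overlaps SNORA100 (106 FPKM). HNRNPD and HNRNPDL are neighbours on chromosome 4, 48.6 kb apart.

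Levels varied across the groups about as much as those of all genes tested. Between the lowest and the highest group mean, on the FPKM + 1 scale, the median gene of the 39 changed 1.40-fold, and the median of all tested genes 1.43-fold. The added 1 shrinks the ratios of low genes most. Without it, the largest ratio among the 39 was 1.92, for HNRNPC. The libraries labelled NT array held the highest group mean for 15 of the 39 genes, a place they held for 13.4% of all genes tested. The libraries labelled ANXA4 array held the lowest mean for 9, against 16.7% of all genes tested.

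**Figure D1:**
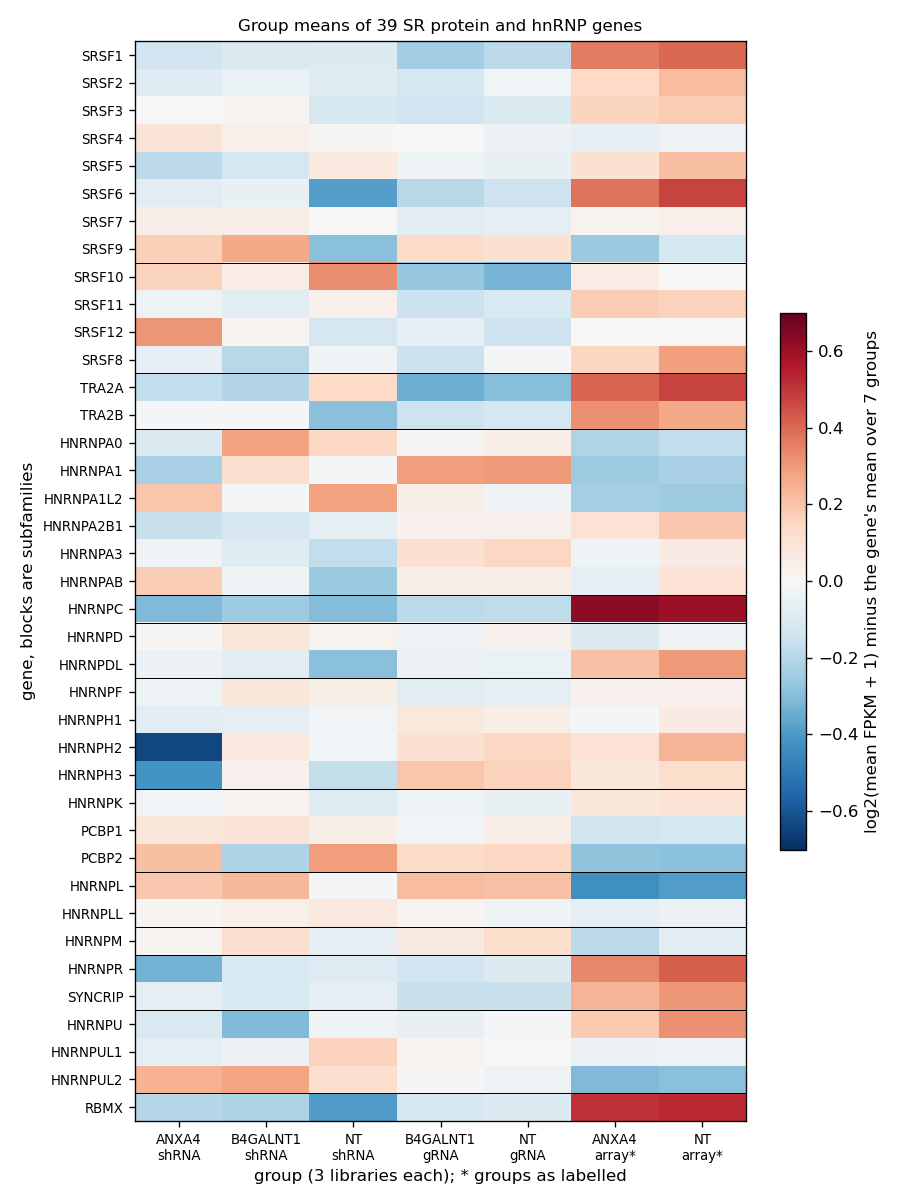
Colour gives the log2 of each group's mean FPKM + 1 minus the gene's mean over the 7 groups, with genes as rows in blocks by subfamily and the 7 groups of 3 libraries as columns; asterisks mark the array groups, named as labelled. HNRNPC, RBMX, TRA2A and SRSF6 are darkest red in both array columns, HNRNPL is blue there, and HNRNPH2 is darkest blue in the ANXA4 shRNA column.

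The first question was how these genes stood with a targeting shRNA, and with the NT guide, against the NT shRNA. The 3 comparisons share the NT shRNA libraries, so likeness between them is partly built in, and each has its own values below. With the ANXA4 shRNA 25 of 39 genes passed a limma test at an adjusted p under 0.05 (13 higher and 12 lower), where 55.6% of all genes tested did (27.5% higher and 28.1% lower). With the B4GALNT1 shRNA 24 did (15 higher and 9 lower), beside 48.9% of all genes (20.3% higher and 28.6% lower). In NT gRNA libraries 25 did (15 higher and 10 lower), beside 53.1% of all genes (24.4% higher and 28.7% lower). The shares of SR protein and hnRNP genes called were 64.1%, 61.5% and 64.1%, not far above these backgrounds. The backgrounds include many genes of low level. Among the 9795 genes reaching 5 FPKM in at least 3 libraries, 6324, 5615 and 5999 passed, beside the same 25, 24 and 25 of the 39.

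The changes were small. The median log2 difference, on the log2(FPKM + 1) scale used throughout, was -0.016 with the ANXA4 shRNA, 0.049 with the B4GALNT1 shRNA and 0.0073 in NT gRNA libraries, beside -0.0076, -0.038 and -0.019 for all genes tested. Only HNRNPH2 with the ANXA4 shRNA, SRSF9 and PCBP2 with the B4GALNT1 shRNA, and SRSF10 in NT gRNA libraries differed by 0.5 or more. Of all genes tested, 12.0%, 7.73% and 8.36% did so. The split for the B4GALNT1 shRNA depended on scaling: with each library centred on its median gene, 22 were higher and 6 lower, and with voom on recovered reads 23 and 8. Of all 13679 genes tested, 6583 and 6901 passed with these settings. The authors' deposited table lists 22 of 42 as higher and 6 as lower. Of the 8 HEK genes tested, 4 were higher and 3 lower with the ANXA4 shRNA, 5 and 1 with the B4GALNT1 shRNA, and 7 and 0 in NT gRNA libraries. Their summed level, most of it VIM, was 696 to 723 FPKM with the ANXA4 shRNA, 731 to 748 with the B4GALNT1 shRNA and 782 to 801 in NT gRNA libraries, against 546 to 566 in NT shRNA libraries. The 12 markers of other cell types summed to 12.4 to 13.6, 12.9 to 14.9 and 15.1 to 16.6 FPKM, against 13.8 to 14.3. The part of neither in the results was tested, and in bulk RNA fewer cells of a kind and less RNA per cell cannot be told apart.

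**Figure D2:**
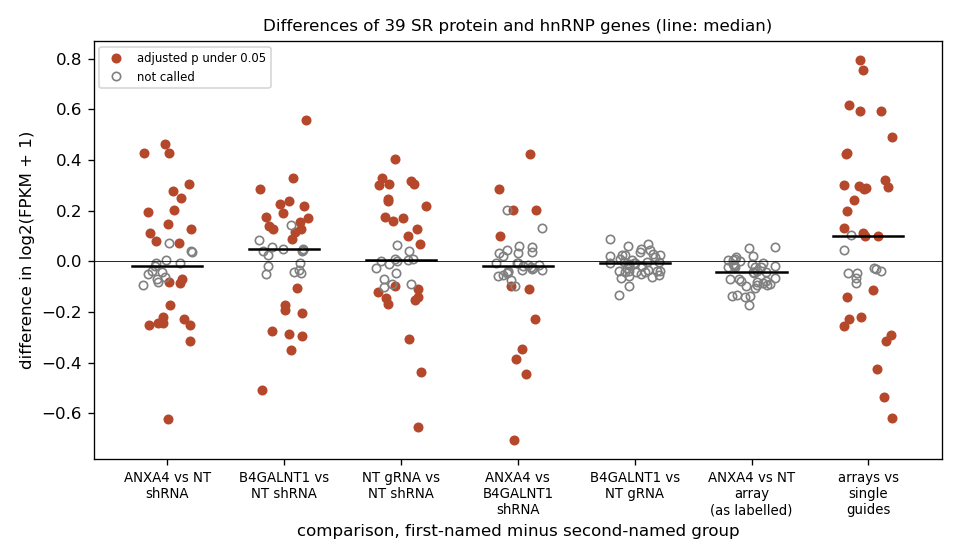
Each point is 1 of 39 genes, placed by its difference in log2(FPKM + 1), the group named first minus the group named second; filled points passed an adjusted p under 0.05 in limma and the line is the median. The points spread widest for the arrays against the single guides, and those for the B4GALNT1 guide and for the arrays as labelled lie close to 0 with none filled.

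Among the classical SR proteins, SRSF9, SRSF6 and SRSF3 were higher and SRSF5 was lower with both targeting shRNAs. SRSF9 (NM_003769, chromosome 12, 120899471 to 120907558, minus strand, hg19), a small SR protein, moved most. It had 288, 288 and 276 FPKM in ANXA4 shRNA libraries, 296, 310.3 and 305 in B4GALNT1 shRNA libraries and 273, 273 and 271 in NT gRNA libraries, against 211, 210.3 and 196 in NT shRNA libraries. All 9 values lay above the 3 of the NT shRNA, and the 3 NT gRNA values lay within 2 FPKM of one another. The log2 differences of SRSF9 in limma were 0.46 ± 0.030 (SE), adjusted p = 5.76e-09 with the ANXA4 shRNA, 0.56 ± 0.030 (SE), adjusted p = 1.54e-09 with the B4GALNT1 shRNA and 0.40 ± 0.030 (SE), adjusted p = 5.9e-08 in NT gRNA libraries.

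SRSF6, an SR protein that binds exonic enhancers, had 39.6, 36.0 and 35.7 FPKM with the ANXA4 shRNA, 39.5, 38.5 and 35.3 with the B4GALNT1 shRNA and 37.4, 35.1 and 33.7 with the NT gRNA, against 29.5, 28.4 and 31.5 with the NT shRNA. The NT shRNA libraries were again the lowest, with no overlap. The limma differences were 0.31 ± 0.057 (SE), adjusted p = 0.000325, then 0.33 ± 0.057 (SE), adjusted p = 0.000215, and 0.24 ± 0.057 (SE), adjusted p = 0.00255 for the 3 groups in that order. SRSF5, another enhancer-binding SR protein, averaged 79.8 ± 1.53 FPKM with the ANXA4 shRNA, 83.1 ± 3.69 with the B4GALNT1 shRNA and 87.3 ± 2.04 with the NT gRNA, against 95.1 ± 3.80 with the NT shRNA (SD, n = 3 each). Its differences were -0.25, -0.19 and -0.12, with limma adjusted p of 6.24e-05, 0.00081 and 0.0157. In the ANXA4 shRNA libraries SRSF5 had 81.3, 79.8 and 78.2 FPKM, all below the NT shRNA values of 95.2, 91.3 and 98.9. SRSF2 and SRSF1 did not pass in limma with either shRNA. SRSF2 had 178, 180.1 and 173 FPKM with the ANXA4 shRNA and 179.6, 185 and 184 with the B4GALNT1 shRNA, against 176, 178 and 179.6 with the NT shRNA. With the B4GALNT1 shRNA the limma difference of SRSF2 was 0.042 (adjusted p = 0.125), but it passed with voom (0.082, adjusted p = 0.00847) and after centring, and the authors' deposited table lists SRSF2 as higher (0.080, adjusted p = 0.0236). In NT gRNA libraries SRSF2 had 186, 186 and 187 FPKM, a difference of 0.068 ± 0.022 (SE), adjusted p = 0.0161 in limma. It did not pass without NT shRNA replicate 1 (0.0637). The fall of SRSF5 in NT gRNA libraries did not pass after centring (limma adjusted p = 0.095), without NT shRNA replicate 3 (0.0766) or without NT gRNA replicate 2 (0.066).

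SRSF10, which turns into a splicing repressor when dephosphorylated on heat shock, had 35.5, 34.6 and 33.9 FPKM with the ANXA4 shRNA, 32.5, 32.3 and 31.8 with the B4GALNT1 shRNA and 24.9, 25.5 and 23.3 with the NT gRNA, against 39.7, 38.6 and 39.1 with the NT shRNA. The NT shRNA libraries were highest and the NT gRNA libraries lowest, with no overlap between any of the 4 groups. The differences in limma were -0.17 ± 0.033 (SE), adjusted p = 0.000496, -0.27 ± 0.033 (SE), adjusted p = 8.83e-06 and -0.65 ± 0.033 (SE), adjusted p = 1.52e-09, the last being the largest of any of the 39 genes between the NT controls. SRSF12, a near relative of SRSF10 present at low level, had 9.62, 8.54 and 8.98 FPKM with the ANXA4 shRNA, against 6.43, 5.95 and 7.05 with the NT shRNA. Its limma difference was 0.43 ± 0.078 (SE), adjusted p = 0.000282, and it did not pass with the B4GALNT1 shRNA (6.96, 7.85 and 6.93 FPKM), except with voom (0.20, adjusted p = 0.0341).

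The paralogs TRA2A and TRA2B, homologs of fly transformer-2 that bind GAA-rich exonic enhancers, moved in opposite directions in all 3 comparisons. TRA2A had 45.3, 41.8 and 39.8 FPKM with the ANXA4 shRNA, 42.3, 43.0 and 38.7 with the B4GALNT1 shRNA and 40.4, 37.6 and 38.3 with the NT gRNA, against 53.2, 51.8 and 53.5 with the NT shRNA. TRA2B had 56.9, 54.3 and 51.9, 54.6, 55.3 and 53.6 and 52.0, 50.7 and 48.4 FPKM in the same groups, against 46.7, 43.6 and 43.4 with the NT shRNA. The NT shRNA libraries were the highest for TRA2A and the lowest for TRA2B, with no overlap. The differences of TRA2A were -0.32 ± 0.047 (SE), adjusted p = 4.28e-05, -0.35 ± 0.047 (SE), adjusted p = 2.32e-05 and -0.44 ± 0.047 (SE), adjusted p = 2.66e-06 in limma. Those of TRA2B were 0.28 ± 0.040 (SE), adjusted p = 2.84e-05, 0.28 ± 0.040 (SE), adjusted p = 3.31e-05 and 0.17 ± 0.040 (SE), adjusted p = 0.00217.

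In the hnRNP A and B group, which holds the classical silencer-binding proteins, HNRNPAB was higher in all 3 comparisons. HNRNPAB had 274, 288 and 270.4 FPKM with the ANXA4 shRNA, 241, 249.7 and 232 with the B4GALNT1 shRNA and 251, 259.6 and 252 with the NT gRNA, against 205, 209 and 203 with the NT shRNA. No value overlapped those of the NT shRNA. Its limma differences were 0.43 ± 0.035 (SE), adjusted p = 6.98e-08, 0.23 ± 0.035 (SE), adjusted p = 6.89e-05 and 0.31 ± 0.035 (SE), adjusted p = 4.25e-06. HNRNPA1 (NM_002136, chromosome 12, 54674474 to 54679030, plus strand, hg19) was one of 3 genes lower with the ANXA4 shRNA and higher with the B4GALNT1 shRNA, the others being HNRNPA0 and HNRNPH3. It had 116, 110.1 and 109 FPKM with the ANXA4 shRNA, 144, 143 and 139 with the B4GALNT1 shRNA and 167, 158 and 159 with the NT gRNA, against 131, 130.4 and 129 with the NT shRNA. The 4 groups did not overlap, and the limma differences were -0.22 ± 0.029 (SE), adjusted p = 1.42e-05, 0.13 ± 0.029 (SE), adjusted p = 0.00221 and 0.31 ± 0.029 (SE), adjusted p = 7.57e-07.

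HNRNPA3 had 57.0, 55.9 and 55.2 FPKM in NT gRNA libraries, against 46.5, 43.9 and 43.9 in NT shRNA libraries, with no overlap and a limma difference of 0.32 ± 0.035 (SE), adjusted p = 3.3e-06. HNRNPA1L2 had 4.32, 4.61 and 3.83 FPKM with the B4GALNT1 shRNA and 4.47, 3.71 and 4.50 with the NT gRNA, against 5.98, 5.66 and 4.75 with the NT shRNA. The limma differences were -0.30 ± 0.099 (SE), adjusted p = 0.0218 and -0.30 ± 0.099 (SE), adjusted p = 0.0174. The first did not pass without NT shRNA replicate 1 (adjusted p = 0.0917), NT shRNA replicate 2 (0.0668) or B4GALNT1 shRNA replicate 3 (0.0913), and the second not without NT shRNA replicate 1 (0.0764), NT shRNA replicate 2 (0.0548) or NT gRNA replicate 2 (0.086). At this level the fall of HNRNPA1L2 rests on single libraries.

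Of the hnRNP F and H proteins, which bind runs of G, HNRNPH2 stood out with the ANXA4 shRNA. HNRNPH2 (NM_001032393, chromosome X, 100663121 to 100669128, plus strand, hg19) had 52.5, 49.8 and 47.6 FPKM in ANXA4 shRNA libraries, against 78.0, 79.0 and 74.8 in NT shRNA libraries. It had 83.1, 83.1 and 80.0 FPKM with the B4GALNT1 shRNA and 89.2, 84.6 and 85.5 with the NT gRNA. The 3 ANXA4 shRNA values were the lowest of all 21 libraries. The limma difference of -0.62 ± 0.041 (SE), adjusted p = 7.99e-09 was the largest of the 39 genes in that comparison, while the gene did not pass in that test with the B4GALNT1 shRNA (0.085 ± 0.041, adjusted p = 0.0995). With the B4GALNT1 shRNA HNRNPH2 was higher with voom (0.13, adjusted p = 0.00228) and after centring, and is higher in the authors' deposited table (0.13, adjusted p = 0.00501). The overlap with RPL36A-HNRNPH2 means that these reads may come from either gene. HNRNPH3 had 108, 104 and 98.6 FPKM with the ANXA4 shRNA and 156, 159 and 150.1 with the NT gRNA, against 123, 125 and 121 with the NT shRNA, with no overlap. Its limma differences were -0.25 ± 0.043 (SE), adjusted p = 0.00015 and 0.33 ± 0.043 (SE), adjusted p = 1.68e-05.

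**Figure D3:**
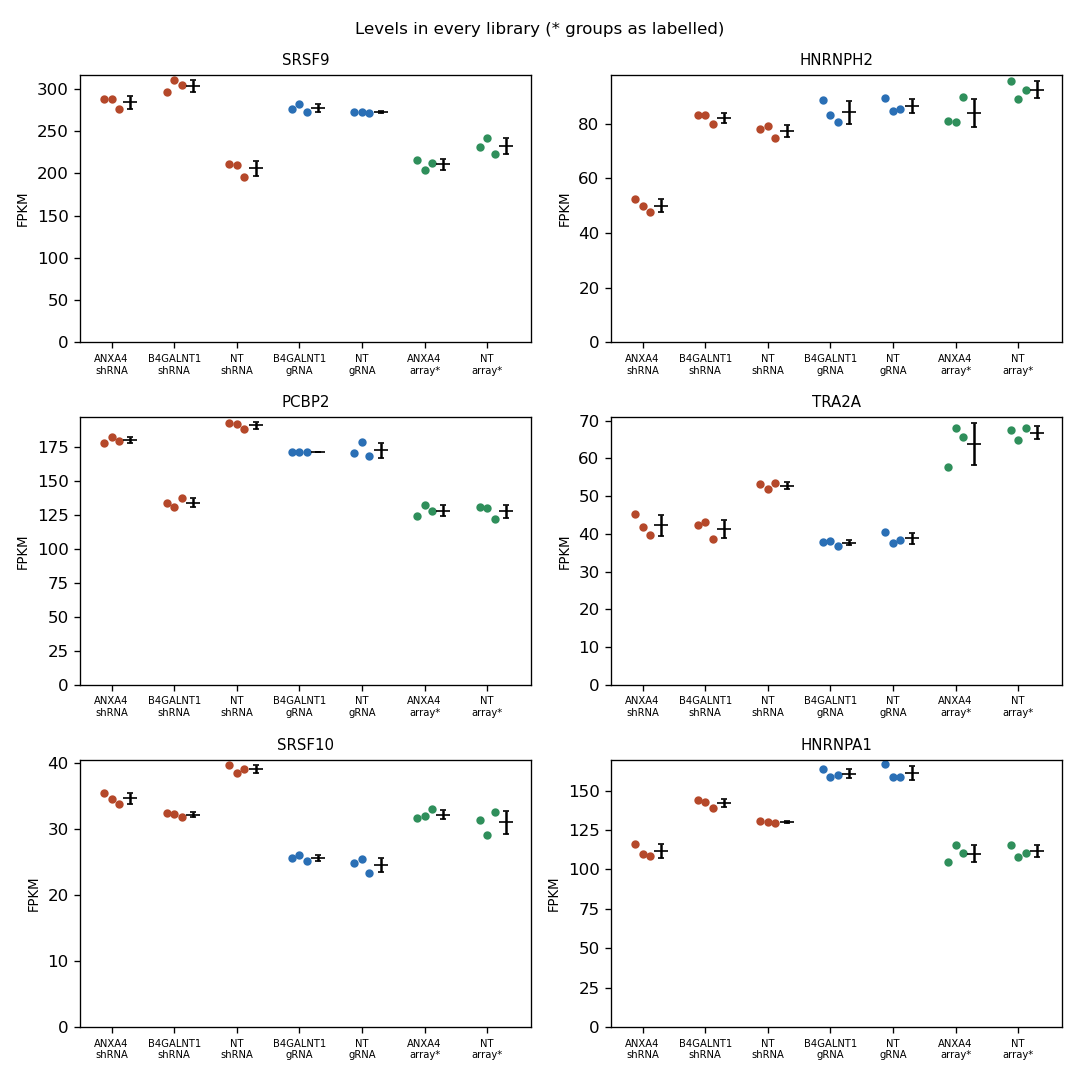
FPKM of SRSF9, HNRNPH2, PCBP2, TRA2A, SRSF10 and HNRNPA1 in every library of the 7 groups, with the mean and SD of each group as a cross with bars; asterisks mark groups as labelled. HNRNPH2 is low only in ANXA4 shRNA libraries, PCBP2 is low in B4GALNT1 shRNA and array libraries, and SRSF9 is low in NT shRNA and array libraries.

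PCBP2, a KH-domain protein that binds runs of C and stabilises messages, was the gene that fell most with the B4GALNT1 shRNA. PCBP2 (NM_005016, chromosome 12, 53845886 to 53874946, plus strand, hg19) had 133, 131 and 137 FPKM with the B4GALNT1 shRNA, 178, 183 and 179.7 with the ANXA4 shRNA and 171, 179 and 168 with the NT gRNA, against 192, 192 and 188 with the NT shRNA. The B4GALNT1 shRNA libraries lay far below the other 3 groups. The limma differences were -0.51 ± 0.025 (SE), adjusted p = 8.49e-10 with the B4GALNT1 shRNA, -0.083 ± 0.025 (SE), adjusted p = 0.0122 with the ANXA4 shRNA and -0.15 ± 0.025 (SE), adjusted p = 0.000241 with the NT gRNA. HNRNPL, which binds CA repeats, had 219, 222 and 229 FPKM with the B4GALNT1 shRNA and 186, 191 and 189 with the NT shRNA, a limma difference of 0.24 ± 0.025 (SE), adjusted p = 1.79e-06 with no overlap.

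HNRNPU, a scaffold protein that binds both chromatin and RNA, had 127, 119.96 and 111 FPKM with the B4GALNT1 shRNA, against 149, 147 and 139.5 with the NT shRNA, and its limma difference was -0.29 ± 0.045 (SE), adjusted p = 9.85e-05. HNRNPUL1, its relative, had 118, 120.2 and 118 FPKM with the NT gRNA, against 133, 135 and 134 with the NT shRNA (-0.17 ± 0.022 (SE), adjusted p = 2.03e-05 in limma). Neither gene's groups overlapped. HNRNPC, which binds runs of U and keeps Alu elements out of messages, did not pass in limma with either targeting shRNA. HNRNPC had 167, 162 and 168 FPKM with the ANXA4 shRNA and 174, 171 and 171 with the B4GALNT1 shRNA, against 168, 167 and 163 with the NT shRNA. With the B4GALNT1 shRNA its limma difference was 0.049 (adjusted p = 0.0933), but it passed with voom (0.091, adjusted p = 0.00171) and after centring, and the authors' deposited table lists HNRNPC as higher (0.091, adjusted p = 0.00189). In NT gRNA libraries HNRNPC had 183, 183 and 179 FPKM, a limma difference of 0.13 ± 0.023 (SE), adjusted p = 0.000366.

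Set directly against each other, the 2 targeting shRNAs differed most in HNRNPH2, HNRNPH3, PCBP2 and HNRNPA0. Between ANXA4 shRNA and B4GALNT1 shRNA libraries 12 of 39 genes passed in limma (5 higher and 7 lower with the ANXA4 shRNA), that is 30.8%, where 51% of all genes tested did (29.5% higher and 21.5% lower). Centring each library on its median gene, or voom on recovered reads, gave 19 genes of the 39, 4 higher and 15 lower in both cases. Of all 13679 genes tested, 6848 passed after centring and 7054 with voom, beside 6981 in the main test. The lower share of these genes was thus not seen with those 2 settings. The median absolute log2 difference was 0.054 for these genes and 0.171 for all tested. HNRNPH2 was lower with the ANXA4 shRNA (49.96 FPKM, against 82.0 with the B4GALNT1 shRNA; log2 -0.71 ± 0.041 (SE), adjusted p = 3.1e-09 in limma), and so was HNRNPH3 (108, 104 and 98.6, against 146, 145 and 133 FPKM; log2 -0.44). HNRNPA0 had 141, 141 and 143 FPKM with the ANXA4 shRNA, against 186, 187 and 182 with the B4GALNT1 shRNA, a limma difference of -0.39 ± 0.020 (SE), adjusted p = 1.13e-09. HNRNPA1 differed by -0.35 ± 0.029 (SE), adjusted p = 1.57e-07. PCBP2 was higher with the ANXA4 shRNA by 0.43 ± 0.025 (SE), adjusted p = 4.4e-09, and HNRNPU, HNRNPAB and SRSF12 by 0.20, 0.20 and 0.29 (limma adjusted p = 0.00149, 0.000198 and 0.00686). The libraries of both groups were apart for each gene named here.

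The second question was what the B4GALNT1 guide did with RfxCasR. None of the 39 genes passed in limma between B4GALNT1 gRNA and NT gRNA libraries, where 0.0219% of all genes tested did. At an unadjusted p under 0.05 there were 3 genes (SRSF2, PCBP1 and SRSF8), voom on recovered reads called 0, and the authors' deposited table lists 0 of 42 as changed at an adjusted p under 0.05. The log2 differences ran between -0.13 and 0.087. SRSF2 had 174, 172 and 176 FPKM with the B4GALNT1 gRNA, against 186, 186 and 187 with the NT gRNA. These did not overlap, and the limma difference was -0.097 ± 0.022 (SE), adjusted p = 0.314. PCBP1, a relative of PCBP2, averaged 194 ± 3.19 FPKM with the B4GALNT1 gRNA and 203 ± 4.03 with the NT gRNA (SD, n = 3 each), and SRSF8, a relative of SRSF2, averaged 9.30 ± 0.477 and 10.3 ± 0.382 FPKM. In all, 6 of the 39 genes had libraries that did not overlap (1 higher and 5 lower), where 11.8% of all genes did (5.34% higher and 6.5% lower).

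The difference between the 2 ways of targeting B4GALNT1 was itself tested, as the guide's effect minus the shRNA's effect, each against its own NT control. In limma 21 of 39 genes passed (6 higher and 15 lower), beside 35.1% of all genes tested (20% higher and 15.2% lower). The 4 with the smallest p were PCBP2, SRSF9, HNRNPUL1 and SRSF10. For PCBP2 the guide's effect was -0.011 and the shRNA's -0.51, a difference of 0.50 ± 0.036 (SE), adjusted p = 1.21e-07. For SRSF9 they were 0.026 and 0.56, a difference of -0.53 ± 0.042 (SE), adjusted p = 2.51e-07. HNRNPUL1 had 0.026 with the guide and -0.20 with the shRNA, and SRSF10 0.060 and -0.27, differences of 0.23 ± 0.032 (SE), adjusted p = 5.78e-05 and 0.33 ± 0.047 (SE), adjusted p = 7.38e-05. In each case the guide's effect lay near 0. The 2 NT controls also differed: NT gRNA minus NT shRNA was 0.40 for SRSF9, -0.65 for SRSF10 and -0.17 for HNRNPUL1 in limma. These have the sign of the shRNA's effect. PCBP2 averaged 172 FPKM with the NT gRNA and 191 with the NT shRNA, against 134 with the B4GALNT1 shRNA. The part of the NT shRNA libraries in these differences was not tested. B4GALNT1 itself fell by 1.09 on the log2 scale with the guide (limma adjusted p = 1.51e-05) and by 0.43 with the shRNA (adjusted p = 0.000445). The 2 falls start from unlike levels, 5.89 FPKM with the NT gRNA and 4.08 with the NT shRNA (limma difference 0.43, adjusted p = 0.000371). B4GALNT1 was higher by 0.81 in ANXA4 shRNA than in B4GALNT1 shRNA libraries.

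Between the array groups as labelled, none of the 39 genes passed in limma either, where 0.0219% of all genes tested did. This test was less precise than that of the guide. The SE was 0.047 for HNRNPC and 0.064 for SRSF2, against 0.023 and 0.022 for the B4GALNT1 guide. Differences of a size called elsewhere could therefore be missed here. There were 4 at an unadjusted p under 0.05, voom called 0, and the authors' deposited table lists 0 of 43 as changed. HNRNPAB had 239.7, 221 and 245 FPKM in libraries labelled ANXA4 array, against 270.4, 272 and 252 in libraries labelled NT array, a limma difference of -0.17 ± 0.055 (SE), adjusted p = 0.837. SRSF9 had 216, 203 and 213 FPKM in libraries labelled ANXA4 array and 231, 242 and 223 in those labelled NT array, and HNRNPU 163, 167 and 175 and 193, 181 and 180.0 FPKM. For 7 of the 39 genes the libraries did not overlap, all lower in those labelled ANXA4 array, where 10.3% of all genes did not overlap (5.88% higher and 4.42% lower). The direction of each of these turns round if the array labels are exchanged. The authors' deposited table gives the opposite sign for HNRNPAB, SRSF9 and HNRNPU (log2 fold changes of 0.17, 0.15 and 0.15), as it does for ANXA4.

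A further comparison, chosen after the values were seen, set the 6 array libraries against the 6 single-guide libraries. Both kinds carry RfxCasR, and pooling the array groups makes the result independent of which array label is right. In limma 30 of 39 genes passed (20 higher and 10 lower in arrays), where 65.1% of all genes tested did (27.5% higher and 37.6% lower). The median log2 difference was 0.10 for these genes and -0.047 for all tested, and 7 genes differed by 0.5 or more, beside 11.0% of all genes. SRSF and TRA2 genes were mostly higher, 11 of 14 with 1 lower, and the hnRNPs and relatives were split, 9 higher and 9 lower of 25. Depth was higher in arrays (34.7 to 39.5 M reads, against 24.5 to 30.7 M in single-guide libraries), and the authors normalized their array table on its own. Markers of other cell types summed to 8.225 to 10.6 FPKM in array libraries, against 14.0 to 16.6 in single-guide libraries, with HBB at 0. The HEK genes summed to 805 to 858 FPKM, against 760 to 801, most of it VIM (662, against 569.9 FPKM), while of the 8 tested VIM alone was higher and 6 were lower. The part of depth and of these markers was not tested. Whether the array libraries were made together with the others is not given in the sources used here, so arrays and any batch cannot be told apart.

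HNRNPC changed most (NM_004500, chromosome 14, 21677296 to 21737638, minus strand, hg19). It had 310.4, 318 and 325 FPKM in libraries labelled ANXA4 array and 309, 304 and 326 in those labelled NT array, against 177, 184 and 182 with the B4GALNT1 gRNA and 183, 183 and 179 with the NT gRNA. The lowest array value was well above the highest of all 15 other libraries, and the limma difference was 0.79 ± 0.025 (SE), adjusted p = 1.97e-10. RBMX (NM_002139, chromosome X, 135955606 to 135962939, minus strand, hg19), the X-linked hnRNP G, had 183, 193 and 196 and 191, 191 and 198 FPKM in the array groups, against 123, 126 and 122 and 125, 126 and 126 in the single-guide groups in the same order. These did not overlap either, and the limma difference was 0.62 ± 0.024 (SE), adjusted p = 1.02e-09.

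TRA2A had 57.6, 68.1 and 65.7 FPKM in libraries labelled ANXA4 array and 67.5, 64.8 and 68.1 in those labelled NT array, against 37.9, 38.0 and 36.8 with the B4GALNT1 gRNA and 40.4, 37.6 and 38.3 with the NT gRNA. Unlike in the comparisons with NT shRNA, TRA2B moved the same way, averaging 68.8 ± 0.698 FPKM in libraries labelled ANXA4 array and 66.1 ± 2.88 in those labelled NT array, against 49.6 ± 1.47 with the B4GALNT1 gRNA and 50.4 ± 1.84 with the NT gRNA (SD, n = 3 each). The limma differences were 0.76 ± 0.039 (SE), adjusted p = 8.64e-09 for TRA2A and 0.42 ± 0.030 (SE), adjusted p = 8.71e-08 for TRA2B. SRSF6 had 51.3, 52.0 and 50.4 and 52.6, 56.0 and 55.6 FPKM in the array groups, against 35.4, 32.1 and 34.9 and 37.4, 35.1 and 33.7 in the B4GALNT1 gRNA and NT gRNA groups (0.59 ± 0.035 (SE), adjusted p = 2.12e-08 in limma). SRSF1, the founding SR protein, averaged 132 ± 5.28 FPKM in arrays and 87.1 ± 3.89 in single-guide libraries (0.59 ± 0.033 (SE), adjusted p = 1.62e-08). HNRNPR and its relative SYNCRIP averaged 57.4 and 68.9 FPKM in arrays, against 40.4 and 51.0, and SRSF2 averaged 214 FPKM, against 180.3.

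**Figure D4:**
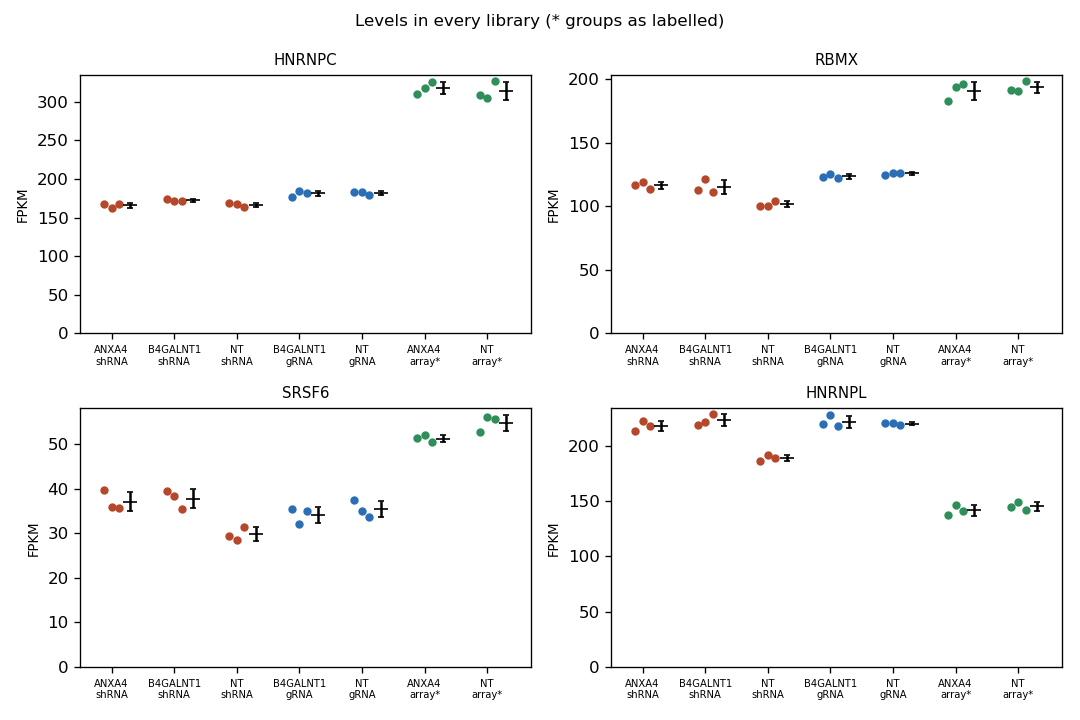
FPKM of HNRNPC, RBMX, SRSF6 and HNRNPL in every library of the 7 groups, with the mean and SD of each group as a cross with bars; asterisks mark groups as labelled. The 6 array libraries lie above all others for HNRNPC, RBMX and SRSF6 and below all others for HNRNPL.

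HNRNPL fell most in arrays (NM_001005335, chromosome 19, 39327028 to 39342979, minus strand, hg19). It had 137, 147 and 141 FPKM in libraries labelled ANXA4 array and 145, 149 and 142 in those labelled NT array, against 219, 227 and 217 with the B4GALNT1 gRNA and 221, 220.2 and 218 with the NT gRNA, a limma difference of -0.62 ± 0.025 (SE), adjusted p = 1.25e-09. HNRNPA1 had 105, 115 and 110.3 and 116, 108 and 111 FPKM in the array groups, against 164, 158 and 159.8 and 167, 158 and 159 in the single-guide groups in the same order. The groups of HNRNPL and HNRNPA1 did not overlap, and HNRNPA1 differed by -0.54 ± 0.030 (SE), adjusted p = 1.46e-08 in limma. PCBP2 averaged 128 ± 4.07 FPKM in arrays and 172 ± 3.49 in single-guide libraries, and SRSF9, the 1 SR protein that fell, 221 ± 13.7 and 275 ± 3.96 FPKM (SD, n = 6 each). Their limma differences were -0.42 ± 0.027 (SE), adjusted p = 4.37e-08 and -0.31 ± 0.025 (SE), adjusted p = 3.03e-07.

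**Figure D5:**
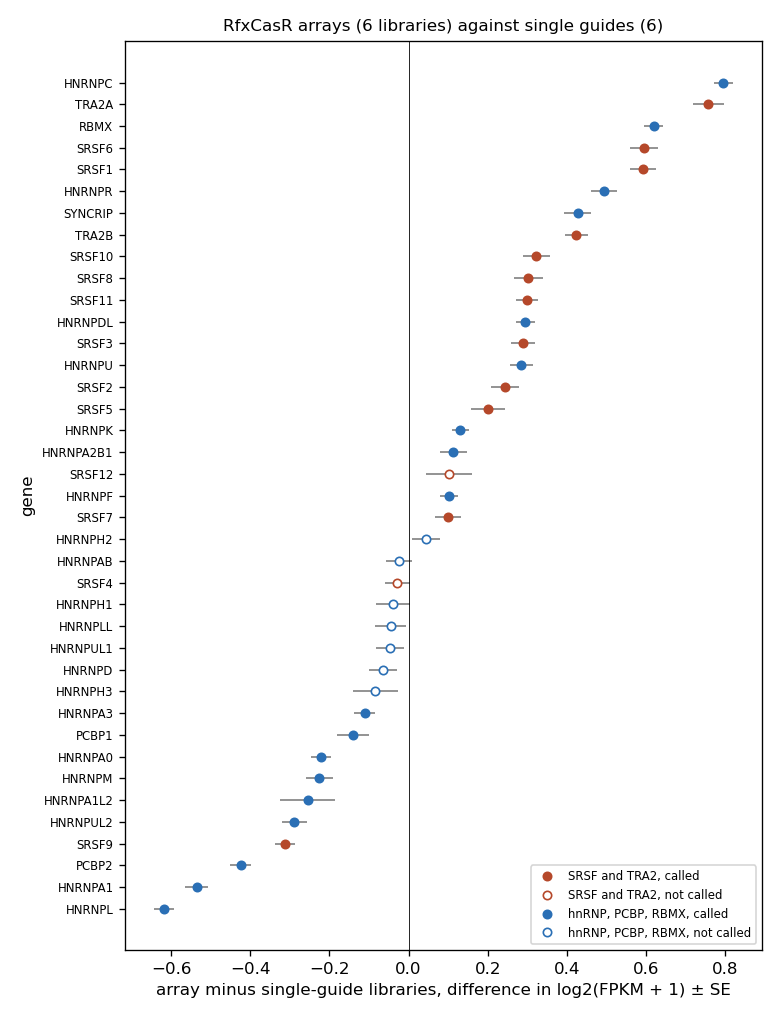
Difference in log2(FPKM + 1) between the 6 array and the 6 single-guide RfxCasR libraries, with its SE, for 39 genes in order of size; red marks SRSF and TRA2 genes, blue hnRNPs and relatives, and filled points passed an adjusted p under 0.05 in limma. Red points lie mostly to the right of 0, with SRSF9 as the filled exception, and HNRNPC and HNRNPL are the outermost points.

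Other genes of splicing were counted from the same limma tests. Their counts stand beside the shares of all genes tested: 27.5% higher and 28.1% lower with the ANXA4 shRNA, 20.3% and 28.6% with the B4GALNT1 shRNA, 24.4% and 28.7% in NT gRNA libraries, and 27.5% and 37.6% in arrays against single guides. Of 40 core snRNP proteins, 18 were higher and 6 lower with the ANXA4 shRNA and 25 higher and 2 lower with the B4GALNT1 shRNA, each against the NT shRNA, that is 45% and 15%, and 62.5% and 5%. SF3A3 was higher with the ANXA4 shRNA (81.1 FPKM, against 52.5 with the NT shRNA, log2 0.62). SF3B6 was higher with the B4GALNT1 shRNA (159 FPKM, against 98.7, log2 0.68). In NT gRNA libraries, against the same NT shRNA, 17 of the 40 were higher and 8 lower. SF3B6 was at 150 FPKM there (log2 0.60), so differences from the NT shRNA were not confined to the targeting shRNAs. These comparisons share the NT shRNA libraries, so this likeness is partly built in. In arrays against single guides 19 were higher and 10 lower. Of 9 kinases and phosphatases of SR proteins tested, 0 were higher and 7 lower (77.8%) in NT gRNA against NT shRNA libraries, with DYRK1A at 6.55 FPKM, against 9.14. With the ANXA4 shRNA 2 were higher and 3 lower, CLK3 being lower (23.8 FPKM, against 32.1 with the NT shRNA; log2 -0.42), and with the B4GALNT1 shRNA 0 were higher and 3 lower.

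Of 8 import and export factors, 4 were higher and 3 lower with the ANXA4 shRNA and 2 higher and 2 lower with the B4GALNT1 shRNA. TNPO2, a nuclear import receptor, was at 23.3 FPKM with the ANXA4 shRNA and 27.4 with the B4GALNT1 shRNA, against 34.3 with the NT shRNA. With the NT gRNA TNPO2 was at 23.1 FPKM. Of 27 SR-related and exon junction genes, 10 were higher and 6 lower with the ANXA4 shRNA, where RNPS1 was lower (76.6 FPKM, against 128; log2 -0.73) and PNN higher (88.8 FPKM, against 45.2; log2 0.96). With the B4GALNT1 shRNA 8 were higher and 3 lower. Of 44 other splicing regulators tested, 20 were higher and 14 lower with the ANXA4 shRNA, and 21 and 11 with the B4GALNT1 shRNA. PTBP1, a pyrimidine-tract repressor, was at 186 and 186 FPKM with these shRNAs and 173 with the NT gRNA, against 123 with the NT shRNA. PTBP2, its neuronal paralog, was at 11.4 FPKM with the B4GALNT1 shRNA and 9.69 with the NT gRNA, against 25.2 with the NT shRNA (limma adjusted p = 1.09e-09 and 2.86e-10).

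Of 10 genes of nonsense-mediated decay, 3 were higher and 0 lower with the ANXA4 shRNA, 0 and 4 with the B4GALNT1 shRNA, and 2 and 5 in NT gRNA libraries, each against the NT shRNA. In a list this short, the 3 higher and the 4 lower lie near the shares of all genes given above. SMG5 was at 60.0 FPKM with the ANXA4 shRNA, against 40.0 with the NT shRNA. In arrays against single guides 4 of these were higher and 3 lower, with UPF1 at 33.9 FPKM, against 47.5. SFPQ, an abundant paraspeckle protein, was at 308 FPKM in arrays, against 179.5 in single-guide libraries (log2 0.78).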

How the data were processed

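The authors deposited FPKM values of 27142 genes in 21 libraries. Per the file headers, sense-strand exon reads were counted by HOMER, 1 value a gene. The submitters' processing notes name hg19, STAR, HOMER, FastQC, R 3.3.2 and DESeq2 1.14.1. The authors also deposited 4 comparison tables, giving each gene's mean count (a signal), its log2 fold change and its p-value after adjustment; these are cited only as the authors' values. The members and gene lists were chosen with earlier results of these data known.

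The 13679 genes reaching 1 FPKM in 3 or more libraries were tested on log2(FPKM + 1), which understates changes of low genes, with limma 3.58.1 in R 4.3.3, an intensity trend and Benjamini-Hochberg adjustment. One model held the 15 shRNA and single-guide libraries, a second the 6 arrays, and another, added after seeing the data, the 12 RfxCasR libraries. The scripts were tested on simulated data. Depth and whole reads were recovered from FPKM times exon length (within 0.1 for 93.9% to 99.3% of values of a library). Replicate pairs differed beyond sampling noise, and p-values measure the spread between these libraries. Chi-square per degree of freedom was 6.23 to 14.3 in the array groups and 2.29 to 4.43 in the others. Named were HNRNPC and SRSF2, up to 4 rises and 4 falls per comparison among called genes with no overlap between libraries, 4 genes by p for the guide against the shRNA, the highest and lowest gene, and up to 2 called genes per other list; SRSF1, SRSF8, HNRNPR, SYNCRIP and PCBP1 were added after their values were seen. Alternatives were another pseudocount, filters, centring, other sets of libraries, a replicate block, voom and leaving out each library.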

Additional observations from a re-analysis of the deposited data

Results flagged for a closer look

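For 21 of the 39 genes the effect of the B4GALNT1 guide with RfxCasR differed from that of the B4GALNT1 shRNA. This is by a limma test of that difference at an adjusted p under 0.05, which 35.1% of all genes tested passed. Among genes reaching 5 FPKM in at least 3 libraries, 4255 of 9795 passed, beside 23 of the 39. The NT controls of the guide and the shRNA also differed, and their part was not tested. B4GALNT1 fell more with the guide, from a higher level in its NT control. The 6 positive differences (guide minus shRNA, log2) were 0.50 for PCBP2, 0.33 for SRSF10, 0.31 for TRA2A, 0.25 for HNRNPU, 0.23 for HNRNPUL1 and 0.21 for SRSF5. Among SRSF and TRA2 genes the negative ones were -0.53 for SRSF9, -0.38 for SRSF6, -0.30 for TRA2B, -0.17 for SRSF3 and -0.14 for SRSF2. Among hnRNPs they were -0.24 for HNRNPAB, -0.23 for HNRNPL, -0.23 for HNRNPM, -0.22 for HNRNPDL, -0.20 for RBMX, -0.18 for HNRNPA0, -0.16 for HNRNPH3, -0.13 for HNRNPA1, -0.11 for PCBP1 and -0.097 for HNRNPK. In none of the 21 did the guide's own effect pass in limma, although SRSF2 and PCBP1 had an unadjusted p under 0.05, and voom called none. The shRNA's own effect passed in all but SRSF2 (0.042, adjusted p = 0.125) and PCBP1 (0.049, adjusted p = 0.0965). With voom the shRNA's effect on both also passed (0.082, adjusted p = 0.00847 and 0.091, adjusted p = 0.00397). The difference for HNRNPH3 missed without each of 9 libraries in turn (adjusted p up to 0.116), that for HNRNPA1 without NT gRNA replicate 1 (0.0604) and that for HNRNPK without B4GALNT1 gRNA replicate 3 (0.0533). With all 21 libraries in 1 model, SRSF2, PCBP1, HNRNPH3 and HNRNPA1 missed (adjusted p = 0.0784, 0.21, 0.245 and 0.063).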

How the results depend on the processing

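Of the 137 called differences over the 8 comparisons, 0 changed sign and 22 lost their call under at least 1 alternative. HNRNPA1L2 with the B4GALNT1 shRNA also missed without a filter (adjusted p = 0.053) and after centring on the median gene (adjusted p = 0.0517), and SRSF2 in NT gRNA libraries with all 21 libraries in 1 model (adjusted p = 0.179). Uncalled differences near 0 did turn sign. With the ANXA4 shRNA, HNRNPC became 0.0022 after centring and 0.00074 with voom, and SRSF2 0.0017 and 2.3e-05. SRSF1 with the B4GALNT1 shRNA became 0.039 after centring and 0.033 with voom. Leaving out each library gave -0.018 to 0.011 for HNRNPC and -0.017 to 0.012 for SRSF2 with the ANXA4 shRNA, -0.016 to 0.012 for HNRNPC with the B4GALNT1 guide, and -0.00044 to 0.051 for HNRNPC between the arrays as labelled. Counts of genes called stayed within 1.5 times, except between ANXA4 and B4GALNT1 shRNAs. There centring and voom each gave 19 in place of 12, 11 of them shared, while 6848 and 7054 of all genes tested passed in place of 6981. The cause was not tested. Median differences of the 39 genes are near 0 and moved. Without a filter the ANXA4 shRNA median was -0.0403. After centring, then with voom, it was 0.0957 and 0.0907 for the B4GALNT1 shRNA, 0.0515 and 0.0347 for NT gRNA against NT shRNA, -0.0568 and -0.0581 between the targeting shRNAs, -0.104 and -0.0952 for guide minus shRNA, and 0.173 and 0.153 for arrays against single guides. Leaving out each library gave medians between -0.0362 and 0.0104 for the ANXA4 shRNA, between -0.00563 and 0.0201 for NT gRNA against NT shRNA, and between -0.0956 and -0.0561 for guide minus shRNA. Without ANXA4 shRNA replicate 3, or without NT gRNA replicate 2, the first and second of these medians turned sign (0.0104 and -0.00563).

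The labels give replicates only a number, and whether those of the same number shared a step is not known. Same-numbered libraries correlated at -0.146 to 0.0901 after group means were removed. For the B4GALNT1 gRNA against the NT gRNA these correlations (0.0325 to 0.0723) exceeded all between unlike numbers. This held in none of the other comparisons so examined. In each shRNA and single-guide group replicate 1 was the deepest, and replicate 3 had the lowest share of reads in genes. With the replicate block 28 genes were called for the ANXA4 shRNA, 25 for the B4GALNT1 shRNA, 28 for NT gRNA against NT shRNA, 15 between the targeting shRNAs, 24 for guide minus shRNA, 30 for arrays against single guides, and 0 for both others. Of all 13679 genes tested, 7752, 6895, 7491, 7190, 5037 and 8851 were called with the block in the first 6 of these. Without it they were 7606, 6686, 7261, 6981, 4808 and 8905.

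Without a filter, the 4 HNRNPC-like genes also entered, and arrays against single guides had 24 higher and 10 lower of 43, beside 9378 of 21938 genes called. The values of these 4 are low, under 1.2 FPKM. HNRNPCL1, HNRNPCL3 and HNRNPCL4 overlap and share reads, so they are not separate results. HNRNPCL2 lies 275 kb from HNRNPCL4. Precision is limited by 3 libraries a group, and differences under about 0.05 on the log2 scale were rarely called.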
